A study of Mus musculus with 48 samples.

Results

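The genes described here are 7 angiopoietins and vascular growth factors of the mouse lung, Angpt1, Angpt2, Pgf, Vegfb, Vegfc, Angptl4 and Nrp1. They were chosen by gene symbol, with earlier results of these data known, and each matched exactly 1 of the 47561 genes in the expression table. RNA was sequenced from 48 adult lungs, each from its own mouse, in 16 groups of 3. The groups crossed strain (C3H/hen, written C3H, and C57Bl/6, written C57B), sex, an intraperitoneal injection (saline, or 25 mg/kg of aurothioglucose, ATG, a gold compound known to inhibit thioredoxin reductase) and the air breathed afterwards (room air, or hyperoxia of above 95% oxygen for 96 h). No label names a transgene or a deletion, and the room-air mice given saline are the baseline of both strains. Each library is of whole lung, so it mixes all cell types of the organ. The sources name the C57B substrain differently, so it is not given here. Levels are FPKM, fragments scaled by transcript length and by the size of the library, so that levels can be compared between genes. The number of reads behind each value is unknown, so no counting error is given, and the error of each value is the spread between mice.

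Blood vessels are kept quiet or made to leak and grow by a small set of secreted ligands. Angpt1, made by cells around the vessel, activates the endothelial receptor Tek (also called Tie2) and stabilises the vessel wall, while Angpt2, made by endothelial cells themselves, mostly opposes it. Pgf and Vegfb bind the receptor Flt1, Vegfc binds Flt4 and drives lymphatic growth, and Nrp1 is a co-receptor that endothelial cells use for growth factors and semaphorins. Angptl4 belongs to the angiopoietin-like proteins, which do not bind Tek, and is known both as an inhibitor of lipoprotein lipase and as a regulator of vessel permeability. In the lung, where the capillary bed lies against the air, these genes are studied for their part in oxygen injury and repair.

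All 7 genes are protein coding in the GENCODE M21 annotation of mm10 (GRCm38). Angpt1 lies on chr15:42424723-42676977, Angpt2 on chr8:18690263-18741562, Pgf on chr12:85166635-85177790, Vegfb on chr19:6982473-6987651 and Angptl4 on chr17:33773750-33781830, all on the minus strand. Vegfc lies on chr8:54077606-54187096 and Nrp1 on chr8:128358604-128503363, both on the plus strand. Angpt2 overlaps Mcph1 on the opposite strand, and Angpt1 overlaps the antisense gene Gm17473. For Angpt1, 14.2% of the distinct 30-base stretches of its transcripts also occurred in transcripts of other genes, against at most 0.765% for the other 6. The labels name a directional library kit, but the strand setting of the quantification is not given in the sources used here, so reads of Angpt1 and Gm17473 may not have been told apart.

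RefSeq promoter windows were given for 4 of the 7 genes, with 2 windows for Pgf, of which the first is printed. The 250 bases before the RefSeq start are printed for Pgf, the gene of the 4 that rose most in hyperoxia, and for Nrp1 and Vegfc, which fell. Capitals mark matches, on either strand, to 4 short patterns that were searched. GGGCGG is the GC box, and ACGTG is a form of the core bound by hypoxia-inducible factors. TGANTCA is the AP-1 site and TGACNNNGC is the core of the antioxidant response element. The windows are, on GRCm38.p6, chr12:85177314-85177563 on the minus strand, chr8:128358823-128359072 on the plus strand and chr8:54077282-54077531 on the plus strand. Both Pgf windows and the Nrp1 window lie inside the GENCODE spans of these genes given above. Their bases are thus downstream of the outermost GENCODE start, while the Vegfc window lies before it.
Pgf: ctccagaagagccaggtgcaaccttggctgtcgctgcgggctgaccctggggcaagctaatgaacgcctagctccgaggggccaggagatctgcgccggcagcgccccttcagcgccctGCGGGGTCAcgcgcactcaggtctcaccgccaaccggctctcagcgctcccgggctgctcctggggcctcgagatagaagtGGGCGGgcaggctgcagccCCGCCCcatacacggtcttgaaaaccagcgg
Nrp1: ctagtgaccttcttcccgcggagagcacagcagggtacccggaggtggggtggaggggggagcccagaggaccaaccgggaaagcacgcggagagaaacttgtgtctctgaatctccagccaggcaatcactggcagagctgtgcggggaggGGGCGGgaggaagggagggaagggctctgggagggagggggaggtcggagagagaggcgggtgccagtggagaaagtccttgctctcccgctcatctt
Vegfc: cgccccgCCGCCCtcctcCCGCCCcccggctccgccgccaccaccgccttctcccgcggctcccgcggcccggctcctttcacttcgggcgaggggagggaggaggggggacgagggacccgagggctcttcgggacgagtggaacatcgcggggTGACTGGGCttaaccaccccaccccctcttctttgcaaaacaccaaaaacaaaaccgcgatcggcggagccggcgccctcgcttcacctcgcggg

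The first Pgf window held 2 matches to GGGCGG and 1 to TGACNNNGC, and so did the Vegfc window, while the Nrp1 window held 1 match to GGGCGG. Neither ACGTG nor TGANTCA matched in any of the 3. Another form of the core bound by hypoxia-inducible factors, GCGTG, was not searched, so its absence cannot be read from this. No match overlapped another. Of all 32851 windows of the same length, 32.7% held GGGCGG, 10.2% held TGACNNNGC, 16.6% held ACGTG and 6.75% held TGANTCA. The 3 windows were rich in G and C, at 68.4% for Pgf, 64.4% for Nrp1 and 71.6% for Vegfc, against a median of 52.4% over all windows. The second Pgf window, chr12:85175983-85176232 on the minus strand, held no match to any of the 4 patterns.

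In room air, Nrp1 had the highest level of the 7 genes, at 76.8 ± 14.1 FPKM (SD, n = 24 mice). Angptl4 (22.1 ± 11.5), Angpt1 (20.6 ± 4.41) and Vegfb (16.8 ± 2.90) followed, and the mean ± SD ranges of these 3 overlapped. Vegfc (9.88 ± 2.45), Angpt2 (6.72 ± 1.51) and Pgf (2.09 ± 0.661) came last. In hyperoxia the order changed: Angptl4 led at 121 ± 37.8 FPKM (n = 24), and Nrp1 stood at 31.4 ± 12.6. Vegfb (21.2 ± 3.17), Angpt2 (18.3 ± 7.93) and Pgf (16.6 ± 7.72) followed, with overlapping mean ± SD ranges. Angpt1 (9.37 ± 5.93) and Vegfc (4.83 ± 1.32) were the lowest, so Angpt1 went from the third place to the sixth and Angpt2 from the sixth to the fourth. This order pools both strains. In C3H hyperoxia lungs, Vegfb (21.4 ± 3.35) was above Angpt2 (10.9 ± 1.82) and Pgf (9.98 ± 3.26, n = 12). In C57B the Vegfb mean (21.0 ± 3.12) was below those of Angpt2 (25.6 ± 3.21) and Pgf (23.3 ± 4.11, n = 12). Within a group of 3 mice, the median coefficient of variation over the 16 groups ran from 11.7% for Nrp1 to 24.2% for Angptl4.

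**Figure D1:**
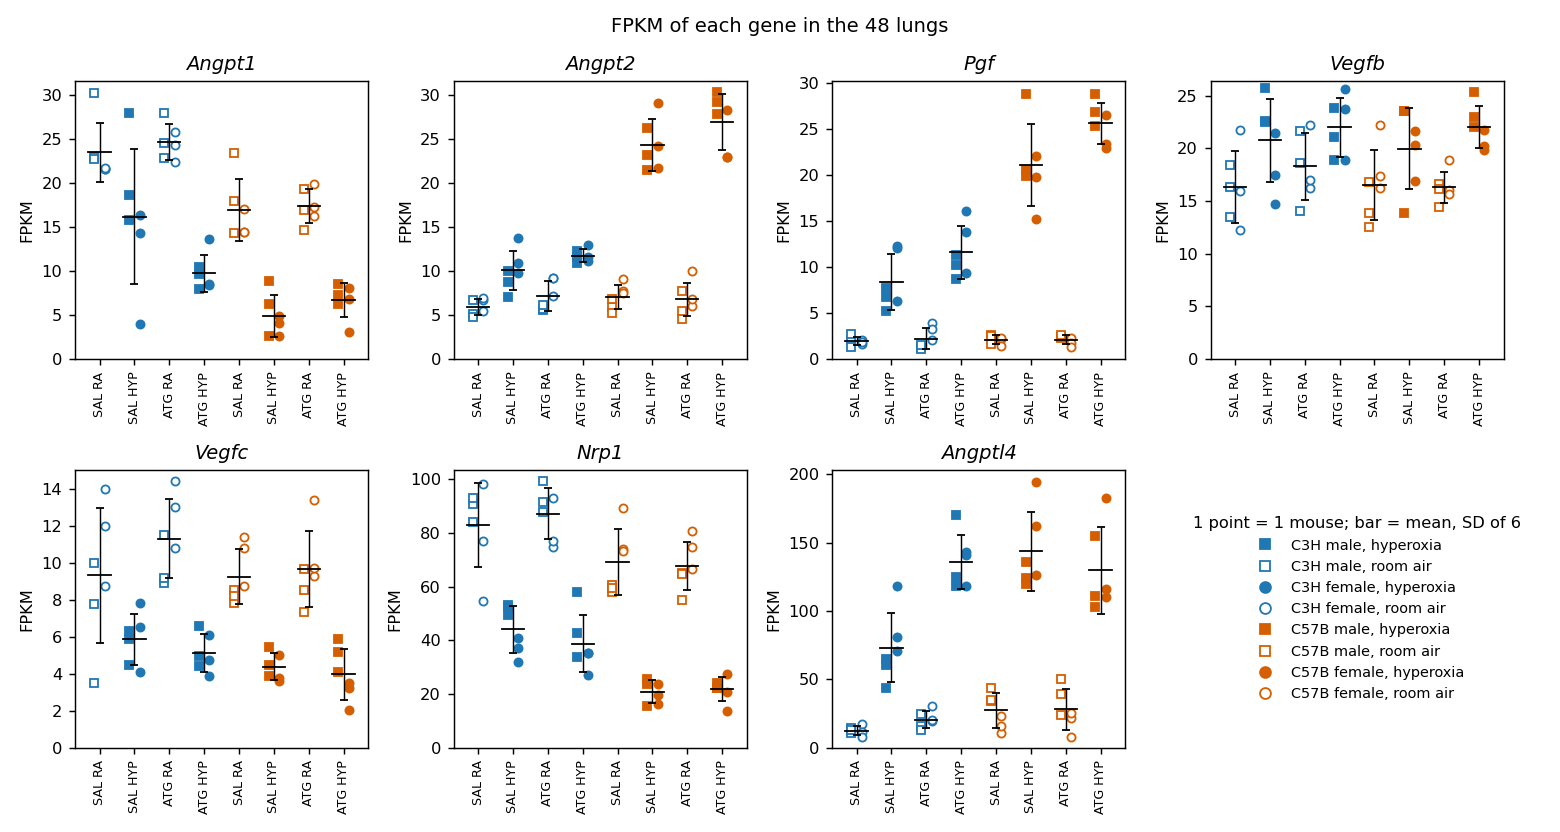
FPKM (vertical axis) of each of the 7 genes in the 48 lungs, by injection and air, with C3H in blue and C57B in orange, squares for males, circles for females, and filled symbols for hyperoxia. Bars are the mean and SD of 6 mice; all 24 Pgf values in hyperoxia lie above all 24 in room air, and with the same injection the C57B hyperoxia values of Angpt2 and Pgf lie above those of C3H.

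Hyperoxia changed all 7 genes in the mice given saline, 4 upwards and 3 downwards (limma on log2(FPKM + 1), 24 mice, Benjamini-Hochberg adjusted p under 0.05). Because the 7 genes were chosen with earlier results of these data known, their count is a description and not a test. This was a broad response: 31.8% of the 16321 genes tested rose and 28.3% fell. The 24 mice given ATG, which share no animal with the first comparison, gave the same directions in all 7 genes, where 35.8% of 16206 genes rose and 26.0% fell. The median log2 difference over all genes was 0.01 in the saline mice and 0.06 in the ATG mice.

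The angiopoietins went in opposite directions. Angpt2, in the C57B mice given saline, had a lowest, median and highest level of 5.19, 7.16 and 9.04 FPKM in room air and of 21.5, 23.7 and 29.1 FPKM in hyperoxia. In the C3H mice given saline these were 4.75, 6.06 and 6.88 FPKM in room air and 7.10, 9.90 and 13.8 FPKM in hyperoxia. The room-air and hyperoxia ranges did not overlap in either strain, with either injection, although the lowest C3H hyperoxia value lay below the highest room-air value of another group. Averaged over strain and sex, Angpt2 rose by 1.17 on the log2 scale in the saline mice (SE 0.08, adjusted p = 3.51e-10), which is 2.24-fold on FPKM + 1, and by 1.27 in the ATG mice (SE 0.08, adjusted p = 3.49e-11).

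Angpt1 fell by 1.17 on the log2 scale with saline (SE 0.19, adjusted p = 1.92e-05) and by 1.28 with ATG (SE 0.11, adjusted p = 3.44e-09). In C57B given saline it ran from 14.3 to 23.4 FPKM in room air (median 15.8) and from 2.61 to 8.84 FPKM in hyperoxia (median 4.45), with no overlap. In C3H given saline it ran from 21.6 to 30.2 FPKM in room air (median 22.2) and from 4.02 to 27.9 FPKM in hyperoxia (median 16.1), and here the ranges overlapped. The 6 C3H lungs given saline and hyperoxia were the most scattered of all the sets: the 3 males had 27.9, 18.6 and 15.8 FPKM and the 3 females had 16.4, 14.3 and 4.02 FPKM. Given ATG, the C3H lungs in hyperoxia were closer together, from 7.95 to 13.6 FPKM, and lay below the room-air range of 22.4 to 27.9 FPKM.

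The ratio of Angpt2 to Angpt1 in each lung puts both changes together. In room air Angpt1 exceeded Angpt2 in all 24 lungs, with ratios from 0.204 to 0.537 and a median of 0.314. In hyperoxia the ratio was above 1 in 18 of 24 lungs, and its median was 2.74. All 12 C57B lungs in hyperoxia were above 1, with medians of 6.07 after saline and 3.70 after ATG. Of the C3H lungs in hyperoxia, 1 of 6 was above 1 after saline (median 0.612, range 0.254 to 3.44) and 5 of 6 after ATG (median 1.28, range 0.817 to 1.54). The lung at 3.44 was that of mouse 33, a C3H female given saline. The ratio is a description, and no test was made on it.

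**Figure D2:**
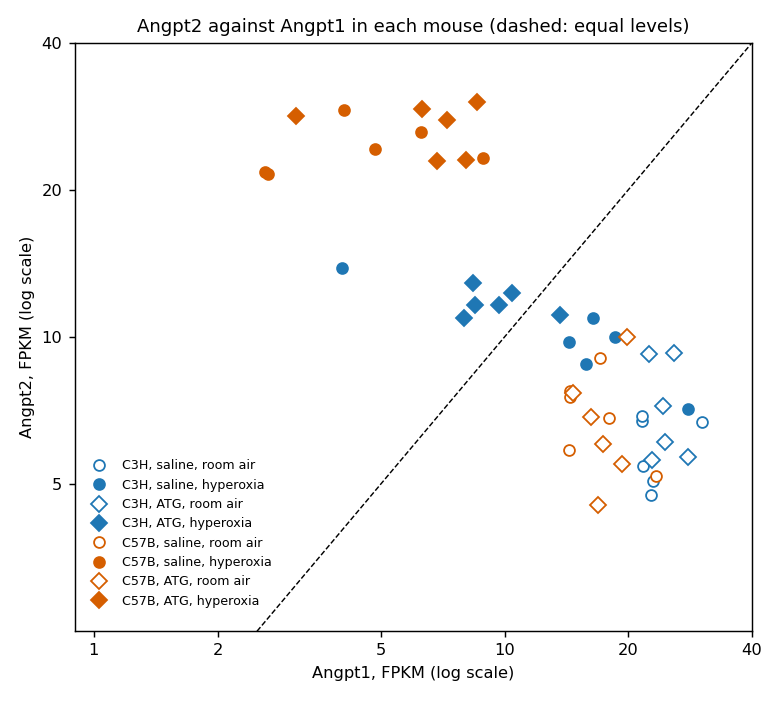
Angpt2 against Angpt1 in each of the 48 lungs, both in FPKM on log axes, with C3H in blue, C57B in orange, circles for saline, diamonds for ATG and filled symbols for hyperoxia; the dashed line marks equal levels. All 24 room-air lungs lie below the line, the 12 C57B hyperoxia lungs lie above it, and the C3H hyperoxia lungs lie on both sides.

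Among the growth factors, Pgf rose most. In room air it was near the bottom of the measured range, between 1.14 and 3.89 FPKM in all 24 lungs, and in hyperoxia it was between 5.23 and 28.8 FPKM, with no overlap. In C57B given saline the hyperoxia values ran from 15.2 to 28.8 FPKM (median 20.2), and in C3H given saline from 5.23 to 12.3 FPKM (median 7.25). The log2 difference was 2.22 with saline (SE 0.12, adjusted p = 7.01e-12) and 2.56 with ATG (SE 0.09, adjusted p = 7.91e-15). Because 1 is added before the logarithm, this scale understates the change of a gene as low as Pgf: the ratio of the mean FPKM in hyperoxia to that in room air was 4.31 in C3H and 9.95 in C57B after saline, and 5.23 and 12.2 after ATG.

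Vegfb, the other ligand of Flt1 described here, had a much smaller difference. It ran from 12.2 to 22.2 FPKM in room air and from 13.9 to 25.7 FPKM in hyperoxia, and 10 of 24 hyperoxia lungs lay above every room-air lung. Its log2 difference was 0.29 with saline (SE 0.11, adjusted p = 0.0221) and 0.34 with ATG (SE 0.07, adjusted p = 0.000462). The saline call did not hold after quantile normalization, where the difference was 0.19 (adjusted p = 0.128), nor in females alone (0.10, adjusted p = 0.596). The ratio of Pgf to Vegfb went from a median of 0.126 in room air (highest 0.196) to 0.785 in hyperoxia, and it was above 1 in 8 of 24 hyperoxia lungs, all of them C57B.

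Vegfc went down. It ran from 3.47 to 14.4 FPKM in room air and from 2.02 to 7.81 FPKM in hyperoxia. The lowest room-air lung was that of mouse 1, a C3H male given saline, whose 2 group mates had 10.0 and 7.78 FPKM. The next lowest room-air lung had 7.33 FPKM, and only 1 hyperoxia lung, at 7.81 FPKM, lay above that. The log2 difference was -0.73 with saline (SE 0.13, adjusted p = 8.17e-05) and -1.07 with ATG (SE 0.10, adjusted p = 6.88e-09). Fitted alone, the 12 saline males gave -0.47 (adjusted p = 0.0787) and the 12 saline C3H mice -0.52 (adjusted p = 0.0936), so the saline call was lost in either of these subsets.

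Nrp1 fell from the highest level of the 7 genes. In C57B given saline it ran from 58.0 to 89.4 FPKM in room air (median 67.0) and from 15.6 to 25.6 FPKM in hyperoxia (median 21.7). In C3H given saline it ran from 54.8 to 98.3 FPKM in room air (median 87.4) and from 31.9 to 53.2 FPKM in hyperoxia (median 45.0). Neither strain overlapped between the 2 airs, and 23 of 24 hyperoxia lungs lay below all room-air lungs. The log2 difference was -1.29 with saline (SE 0.09, adjusted p = 4.98e-10) and -1.40 with ATG (SE 0.10, adjusted p = 1.13e-10).

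Angptl4 reached the highest level of the 7 genes in hyperoxia, and on the log2(FPKM + 1) scale its rise after saline was larger than those of the other 3 genes that rose. In C3H given saline it ran from 7.97 to 17.1 FPKM in room air (median 12.3) and from 43.8 to 118 FPKM in hyperoxia (median 67.9). In C57B given saline it ran from 10.9 to 44.0 FPKM in room air (median 28.7) and from 120 to 194 FPKM in hyperoxia (median 131). The strains started apart and rose by a similar factor, 5.87 in C3H and 5.28 in C57B as a ratio of mean FPKM. The log2 difference was 2.45 with saline (SE 0.13, adjusted p = 6.24e-12) and 2.52 with ATG (SE 0.17, adjusted p = 1.12e-10).

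**Figure D3:**
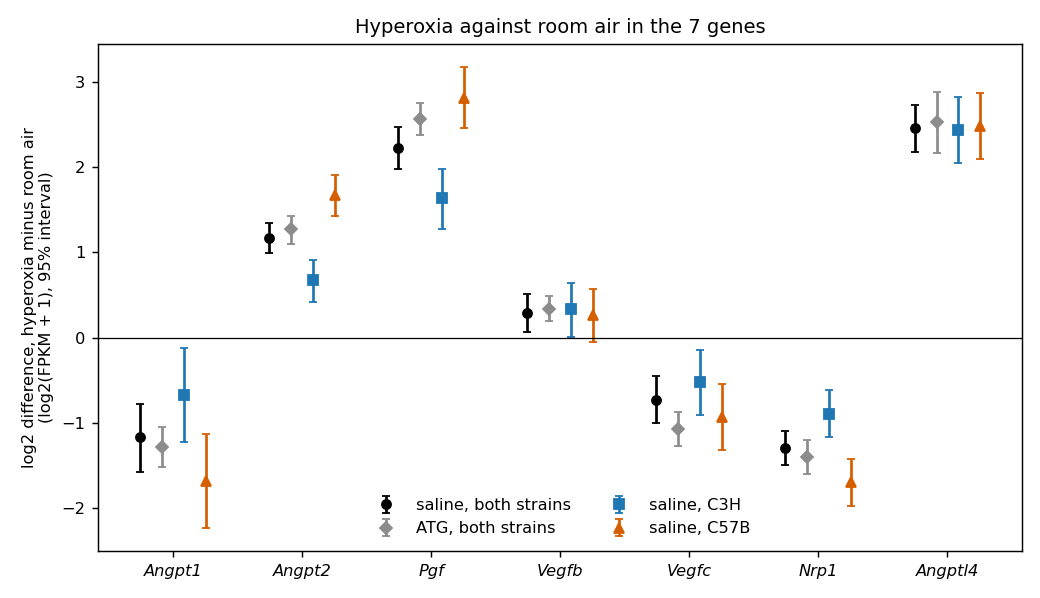
The log2 difference of FPKM + 1, hyperoxia minus room air (vertical axis), for each of the 7 genes, with 95% intervals, in all saline mice, all ATG mice, and the C3H and C57B mice given saline. Angptl4 lies at 2.43 in C3H and 2.48 in C57B, while Angpt2 lies at 0.67 and 1.67 and Pgf at 1.63 and 2.81.

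Markers of several cell types moved with the airs. In bulk tissue, fewer cells of a type and less RNA per cell cannot be told apart. Of 12 endothelial markers, 8 fell and 2 rose after saline (median log2 difference -0.62), and 9 fell and 1 rose after ATG. Their summed level was 1808 to 3625 FPKM in room air and 1413 to 3304 FPKM in hyperoxia. The 2 markers that passed in neither direction after saline were Pecam1, at -0.00 (adjusted p = 0.991), and Cldn5, at -0.04 (adjusted p = 0.778). Pecam1 fell by 0.48 after ATG (adjusted p = 9.79e-06). Cldn5 rose by 0.49 in saline C3H (adjusted p = 0.0103) and fell by 0.56 in saline C57B (adjusted p = 0.00229), a strain difference of 1.05 (adjusted p = 0.00280). Nrp1 had -1.29 after saline, and of the 12 endothelial markers only Ednrb, at -1.44, lay lower. The part of cell makeup in the changes of the 7 genes was not tested.

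The other marker lists moved as follows. Of 8 pericyte and smooth muscle markers, 3 rose and 1 fell after saline (Tagln 1.08, Acta2 0.77, Cspg4 0.39 and the pericyte gene Rgs5 -0.74 on the log2 scale), and the summed level was 165 to 327 FPKM in room air and 260 to 622 FPKM in hyperoxia. Of 7 fibroblast markers, 1 rose and 1 fell (Pdgfra 1.32 and Tcf21 -1.82), with sums of 353 to 659 and 332 to 649 FPKM. Of 6 macrophage markers 5 rose and 1, Csf1r, fell (-0.39) after saline, with sums of 112 to 652 FPKM in room air and 150 to 1870 FPKM in hyperoxia, and neutrophil markers in 5 of 5, with sums of 59.9 to 3620 and 157 to 6265 FPKM. Of 8 alveolar epithelial markers 6 fell and 1, Sftpb, rose (0.40), with sums of 27555 to 51920 FPKM in room air and 6824 to 24955 FPKM in hyperoxia. Angptl4 and Vegfb are also known from fat and heart muscle. Of those lists, 6 of the 7 cardiac markers tested, of 8 listed, fell (sums of 24.3 to 1454 FPKM in room air and 12.5 to 101 FPKM in hyperoxia), and 1 of the 4 adipocyte markers tested, of 6 listed, fell, with sums of 4.39 to 32.6 FPKM in room air and 0.474 to 30.6 FPKM in hyperoxia. No marker in any of these lists was at 0 in all lungs of either air.

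The libraries were compared before use. No 2 of the 48 held identical values, and every library's closest match among the others, by correlation over 16994 genes, was of the same strain and the same air. Mice 1 and 3, both C3H males given saline in room air, stood apart on the third principal component, which held 5.83% of the variance. Leaving both out ended the call of Angptl4 between strains at baseline. Mice 27 and 6 had the highest cardiac marker sums, 1454 and 1108 FPKM. Mouse 27 is also 1 of 7 mice whose single omission ended the call of Angpt1 between strains at baseline. Without mouse 27 the log2 difference of Angpt1 was 0.46, as in the full fit. A part of heart tissue in that call was not tested.

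The receptors of these ligands were measured in the same lungs. Of 8 receptors and co-receptors, 5 fell and 1 rose after saline and 7 fell after ATG, with median log2 differences of -0.52 and -0.89. Tek, the receptor of both angiopoietins, fell most: from 70.8 ± 15.8 to 30.6 ± 18.1 FPKM after saline (SD, n = 12 each; log2 difference -1.40, adjusted p = 2.27e-10) and from 80.5 ± 15.4 to 21.6 ± 11.8 FPKM after ATG (-1.99, adjusted p = 5.32e-13). Tie1, its orphan partner, fell by 0.86 after saline (adjusted p = 7.68e-08) and by 1.29 after ATG (adjusted p = 4.83e-11). Ptprb, the phosphatase that dampens Tek, fell by 0.39 (adjusted p = 0.00303) and by 1.18 (adjusted p = 1.34e-09).

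The growth factor receptors were less uniform. Kdr, the main endothelial growth factor receptor, fell by 0.65 after saline (adjusted p = 3.64e-06) and by 0.94 after ATG (adjusted p = 1.86e-07). Flt1, which binds Pgf and Vegfb, differed by -0.25 after saline (adjusted p = 0.0628) and fell by 0.84 after ATG (adjusted p = 2.21e-08). Flt4, the receptor of Vegfc, differed by 0.22 after saline (adjusted p = 0.111) and fell by 0.35 after ATG (adjusted p = 0.00100). Nrp2, the co-receptor that works with Flt4, rose by 0.27 after saline (adjusted p = 0.0186) and differed by -0.11 after ATG (adjusted p = 0.186). After quantile normalization or median ratio scaling, 6 receptors fell and none rose after saline, and 8 of 8 fell after ATG, so the rise of Nrp2 depended on the scaling. Plxnd1, a semaphorin receptor that pairs with Nrp1, fell in both, by 0.70 (adjusted p = 0.000203) and by 0.62 (adjusted p = 0.000879).

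**Figure D4:**
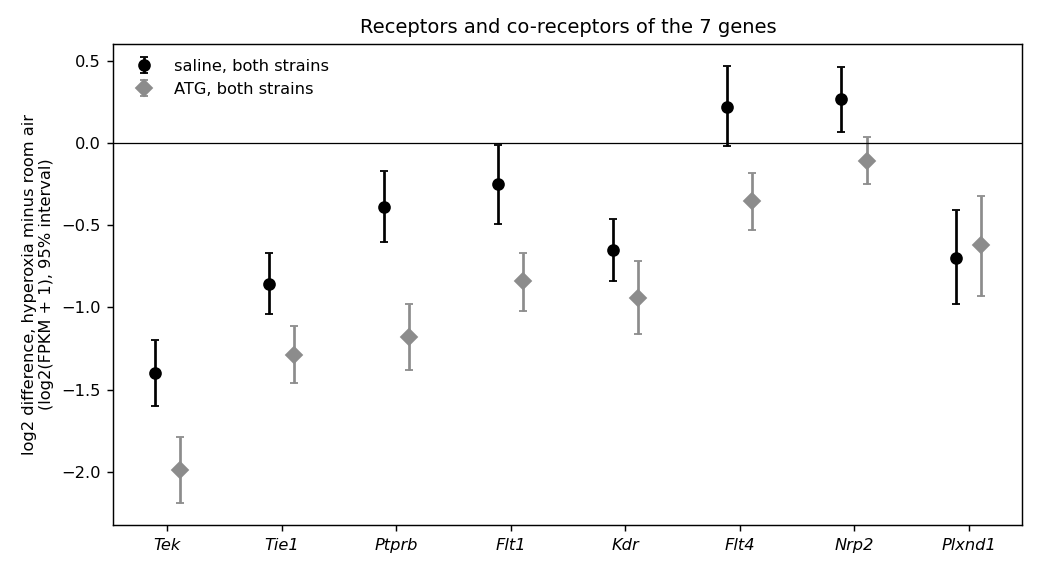
The log2 difference of FPKM + 1, hyperoxia minus room air (vertical axis), for 8 receptors and co-receptors with 95% intervals, in 24 saline mice (black) and 24 ATG mice (grey). The ATG values lie below the saline values for every receptor except Plxnd1, and Tek has the largest fall, -1.40 and -1.99.

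Other genes of these pathways were read from lists. Of 11 related ligands 7 were tested, and 3 fell and 1 rose after saline: Angptl2, an angiopoietin-like protein, by -1.00 (adjusted p = 7.64e-07), Sema3c, a ligand of neuropilins, by -0.99 (adjusted p = 6.86e-09), Angptl7 by -0.97 (adjusted p = 0.00168), and Angptl6 by 0.69 (adjusted p = 2.17e-05). Figf, which encodes the second ligand of Flt4, was listed at exactly 0 in all 48 lungs. Whether it was quantified at all is not known, so its level cannot be read from these zeros. Of 6 genes for processing Vegfc or marking lymphatic vessels 4 were tested, and Lyve1 and Svep1 rose, by 3.10 (adjusted p = 1.97e-13) and 0.55 (adjusted p = 0.00412). Lyve1 went from 83.9 ± 25.0 to 762 ± 315 FPKM (n = 12 each) while Vegfc fell; it is also known from macrophages. Prox1, the defining lymphatic transcription factor, was too low to be tested.

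Angptl4 acts on lipoprotein lipase, and its transcription is known to follow PPAR receptors, so 10 genes of lipid handling were listed beside it. After saline 6 rose and 2 fell, and after ATG 4 rose and 5 fell. The lipid droplet protein Plin2 rose by 1.93 with saline and 1.81 with ATG (adjusted p = 7.39e-12 and 3.99e-14), Pdk4, a brake on glucose oxidation, by 1.58 and 0.97 (adjusted p = 1.96e-07 and 0.000895), and the thioesterase Acot2 by 0.90 and 0.96 (adjusted p = 1.17e-05 and 1.87e-07). Gpihbp1, which holds the lipase on the capillary wall, fell by 0.87 and by 1.48 (adjusted p = 1.13e-06 and 3.17e-10). The lipase itself, Lpl, rose by 0.57 after saline (adjusted p = 0.000506) and fell by 0.25 after ATG (adjusted p = 0.0480). Its response to hyperoxia differed between the injections by -0.82 (adjusted p = 0.00714), in a comparison where 2.77% of 16994 genes passed.

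The strains differed in how far 3 of the 7 genes moved. The comparison asked whether the hyperoxia difference in C3H equalled that in C57B among the mice given saline, and 11.5% of all genes tested passed it, with a median difference over all genes of 0.15. The difference within each strain was taken from the same fit of all saline mice, not from the strain fitted alone. In C3H 3 of the 7 rose and 2 fell (over all genes, 25.3% and 12.5%). In C57B 3 rose and 3 fell (25.5% and 30.0%). Pgf rose by 1.63 in C3H (SE 0.17) and by 2.81 in C57B (SE 0.17), a difference of -1.19 (SE 0.24, adjusted p = 0.00412). Angpt2 rose by 0.67 in C3H (SE 0.12) and by 1.67 in C57B (SE 0.12), a difference of -1.00 (SE 0.16, adjusted p = 0.000864). Nrp1 fell by 0.90 in C3H (SE 0.13) and by 1.69 in C57B (SE 0.13), a difference of 0.80 (SE 0.19, adjusted p = 0.00992). For all 3 the C57B response was the larger. In hyperoxia after saline the 6 C3H and 6 C57B lungs did not overlap for any of them, nor for Angptl4, which did not pass. The share of all genes without such overlap was not counted.

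The same comparison in the 24 mice given ATG, which are separate animals, gave -1.21 for Angpt2 (adjusted p = 7.21e-05) and -1.10 for Pgf (adjusted p = 0.000529), and 13.3% of genes passed. Nrp1 had 0.43 there and did not pass (adjusted p = 0.148). In hyperoxia after ATG, Angpt2 was 10.9 to 12.9 FPKM in the 6 C3H lungs and 22.9 to 30.3 FPKM in the 6 C57B lungs, and Pgf was 8.70 to 16.1 and 22.9 to 28.8 FPKM. Both genes were close between the strains in room air, where the ratio of the C3H mean to the C57B mean was 0.842 after saline and 1.06 after ATG for Angpt2, and 0.921 and 1.06 for Pgf.

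The other 4 genes did not pass the strain comparison. Angpt1 had -0.67 in C3H (adjusted p = 0.0525) and fell by 1.68 in C57B, a difference of 1.01 with an interval from 0.23 to 1.79 (adjusted p = 0.0825). It passed when mouse 33 was left out (1.30, adjusted p = 0.00653), when mouse 20, a C57B male given saline and hyperoxia, was left out (1.17, adjusted p = 0.0473), and when all 48 mice were fitted together (adjusted p = 0.0249), but the difference was 0.03 in the ATG mice. Mouse 33 also had the highest neutrophil marker sum of the 48 lungs, 6265 FPKM, against a median of 205 FPKM in the 6 C3H lungs given saline and hyperoxia. Angptl4 rose by 2.43 in C3H and by 2.48 in C57B, a difference of -0.05 with an interval from -0.59 to 0.50. Vegfc differed by 0.41 (interval -0.14 to 0.96). Among the receptors Tek passed, with 1.47 (adjusted p = 8.76e-05): in hyperoxia after saline it stood at 46.9 ± 8.74 FPKM in C3H and 14.2 ± 1.83 FPKM in C57B (SD, n = 6 each). The strains also differed in marker sums in that condition, where endothelial markers were 2470 to 3304 FPKM in C3H and 1413 to 1847 FPKM in C57B, macrophage markers 321 to 712 and 768 to 1870 FPKM, and pericyte and smooth muscle markers 263 to 352 and 260 to 615 FPKM.

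The comparison of the hyperoxia response between the sexes, which 0.0368% of all genes passed, was passed by none of the 7 genes (limma), and 1 of them, Angptl4, had an unadjusted p under 0.05. Saline males went from 10.7 to 44.0 FPKM in room air (median 24.3) to 43.8 to 136 FPKM in hyperoxia (median 92.8), and saline females from 7.97 to 23.3 FPKM (median 13.8) to 70.7 to 194 FPKM (median 122). The rise in males was smaller by 1.12 on the log2 scale, coded as -1.12 for males minus females (SE 0.26, unadjusted p = 0.000364, adjusted p = 0.106). The median over all genes was 0.14 in this comparison. Without mouse 2 the value was -1.08 (adjusted p = 0.0290), without mouse 19 it was -1.15 (adjusted p = 0.0295), and in the ATG mice it was -0.38 (adjusted p = 0.813).

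In room air, none of the 7 genes passed between ATG and saline (limma, 24 mice, where 0.0185% of genes passed), and none had an unadjusted p under 0.05, against 1077 of all genes. The largest difference was that of Angptl4, 0.33 with an interval from -0.06 to 0.71 (adjusted p = 0.750). For the other 6 the intervals stayed within -0.18 and 0.44. The receptors did not pass either, with a median log2 difference of 0.15.

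Among the 24 mice in hyperoxia, ATG raised Angptl4 alone of the 7, by 0.39 on the log2 scale (SE 0.11, adjusted p = 0.0493), where 5.47% of genes passed. This call was marginal: leaving out any 1 of 21 of the 24 mice took the adjusted p to between 0.0521 and 0.0908, and it held only without mouse 33, 45 or 46. In C3H, Angptl4 was 43.8 to 118 FPKM after saline (median 67.9) and 118 to 170 FPKM after ATG (median 133), while in C57B it was 120 to 194 FPKM (median 131) and 103 to 183 FPKM (median 114). The 3 C3H males given saline had 65.2, 60.6 and 43.8 FPKM and those given ATG 170, 125 and 118 FPKM, without overlap. The test of ATG between the strains, made after these values had been seen, gave 1.09 (SE 0.23, adjusted p = 0.0330), and 0.416% of genes passed it. Leaving out any 1 of 13 of the 24 mice ended this call too, with adjusted p between 0.0593 and 0.0780. After saline the 6 C3H and 6 C57B hyperoxia lungs did not overlap for Angptl4, and after ATG the ratio of their means was 1.05.

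Pgf followed with 0.37 (SE 0.11, adjusted p = 0.0547), with medians after saline and after ATG of 7.25 and 10.7 FPKM in C3H and 20.2 and 25.9 FPKM in C57B. It passed without mouse 11 (adjusted p = 0.0494), 20 (0.0385), 33 (0.0367) or 36 (0.0398), and when all 48 mice were fitted together (adjusted p = 0.0345). Angpt2 had 0.18 (adjusted p = 0.128). For Angpt1 the C3H mean was 16.2 ± 7.69 FPKM after saline and 9.75 ± 2.11 FPKM after ATG, and its C57B mean 4.87 ± 2.38 and 6.69 ± 1.93 FPKM (SD, n = 6 each). The difference between the strains in this, -0.96, did not pass (adjusted p = 0.324).

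The receptors were also compared between the injections. In hyperoxia, 6 of 8 were lower after ATG than after saline, among them Ptprb by -0.52 (adjusted p = 0.00690), Tek by -0.41 (adjusted p = 0.0187) and Flt1 by -0.41 (adjusted p = 0.0320), and the count was 6 under both other scalings. Of the 12 endothelial markers, 3 were also lower there, Pecam1 at -0.32 (adjusted p = 0.0100), Ramp2 at -0.35 (adjusted p = 0.0350) and Tmem100 at -0.46 (adjusted p = 0.0493), and their part in the receptor values was not tested. The comparisons of hyperoxia and of ATG share the same hyperoxia mice, so these values are not independent of those above. When the hyperoxia difference with ATG was set against that with saline over all 48 mice (limma), none of the 7 genes passed and 2 had an unadjusted p under 0.05, while 2.77% of the 16994 genes tested passed and 3190 had an unadjusted p under 0.05. Among the receptors 5 passed: Ptprb at -0.79 (adjusted p = 0.00281), Tek at -0.59 (adjusted p = 0.0174), Flt1 at -0.59 (adjusted p = 0.0207), Flt4 at -0.57 (adjusted p = 0.0259) and Tie1 at -0.43 (adjusted p = 0.0480). Of the endothelial markers, 3 were lower in the same comparison (Pecam1 -0.48, Erg -0.51 and Tmem100 -0.58) and Egfl7 was higher (0.51). The 2 members with an unadjusted p under 0.05 were Pgf, with 0.34 (adjusted p = 0.207), and Vegfc, with -0.34 (adjusted p = 0.260).

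At baseline, in the 12 saline mice in room air, 2 of the 7 genes differed between the strains, and 11.8% of 15546 genes did. The median over all genes was -0.10. Angpt1 was higher in C3H, at 23.4 ± 3.35 FPKM against 16.9 ± 3.53 FPKM in C57B (SD, n = 6 each; log2 difference 0.46, SE 0.12, adjusted p = 0.0326). Angptl4 was lower in C3H, at 12.5 ± 3.20 FPKM against 27.2 ± 12.6 FPKM (-0.96, SE 0.20, adjusted p = 0.00818). In the 12 ATG mice in room air Angpt1 had 0.48 (adjusted p = 0.00321), with no overlap between the strains, and Angptl4 had -0.29 (adjusted p = 0.536). The Angpt1 call ended when mouse 13, 15, 25, 26, 27, 37 or 39 was left out (adjusted p from 0.0558 to 0.0795), and the Angptl4 call was lost without mice 1 and 3 together (-0.87, adjusted p = 0.0688). Among the receptors Nrp2 (0.81, adjusted p = 0.00442) and Plxnd1 (0.65, adjusted p = 0.0400) were higher in C3H.

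Between the sexes at baseline none of the 7 genes passed (limma), 3 had an unadjusted p under 0.05, and 0.669% of all genes passed, with a median over all genes of -0.12. Angptl4 had 0.64 for males minus females (adjusted p = 0.118), Vegfc -0.50 (adjusted p = 0.174) and Angpt2 -0.29 (adjusted p = 0.182). The Angptl4 values were 34.0, 35.0 and 44.0 FPKM in C57B males and 10.9, 16.2 and 23.3 FPKM in C57B females, without overlap, whereas C3H males had 10.7, 14.6 and 13.1 FPKM and C3H females 17.1, 11.5 and 7.97 FPKM. The test of that difference between strains gave -1.06 (adjusted p = 0.244). No gene of 15546 passed it (limma, 0.00%), while 2538 had an unadjusted p under 0.05, among them Angptl4 and Nrp1 (0.65, adjusted p = 0.251). Without mouse 2, Vegfc (-0.64, adjusted p = 0.0294) and Angpt2 (-0.35, adjusted p = 0.0364) passed between the sexes.

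The genes whose pattern over the 16 group means was most like each member's were found by Pearson correlation among 16994 genes, as a description. Group means share strain, air and injection, so a high value only says that 2 genes rank the groups alike. Nrp1 was closest to Pde5a, Smarca2 and Btd (r from 0.990 to 0.993), Pgf to Rin1, Ptpmt1 and Kcmf1 (0.984 to 0.987), and Angpt1 to Sept4, Inmt and Ap3m2 (0.973 to 0.983). Angpt2 was closest to Fip1l1, Zfp384 and Kansl2 (0.968 to 0.981), Angptl4 to Eif3i, Cct7 and Clptm1l (0.972 to 0.976), and Vegfc to Marveld1, Itga1 and Clstn1 (0.959 to 0.970). The lowest values were those of Vegfb, whose levels moved least, with Psmd5, Prpsap1 and Igf2r (0.929 to 0.943). None of the 7 members was among the closest of another.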

How the data were processed

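Lung RNA of 48 mice was sequenced in 16 groups of 3. Per the labels, libraries were made with a directional mRNA kit and read in pairs on a HiSeq2000, while the study's methods, which describe 12 of these mice, name another kit. Per the submitters' processing notes the authors used GSNAP, SAMtools and Cufflinks with mm10, and deposited FPKM per gene, with no counts. The annotation release is not given in the sources used here. FPKM keep no read totals, so the depth is unknown, and the FPKM of a library summed to 510933 to 748290. A single gene, Scgb1a1, held 10.4% to 30.2% of that sum in room air (median 18.1%). In hyperoxia it held 1.20% to 7.17% (median 4.61%). The part of this shift in the hyperoxia differences of other genes was not tested.

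Groups were taken from the labels. Limma (3.58.1, R 4.3.3) was run on log2(FPKM + 1) with a trended variance, over all genes that reached an FPKM of 1 in 3 or more mice of the fit, with Benjamini-Hochberg adjustment over those genes and a threshold of 0.05. Main effects were averaged over strain and sex. Fold changes on this scale understate those of low genes. Intervals are 95% and for single genes. Akap5, a failed estimate, was left out. Scripts were tested on simulated data. The replicates are separate mice.

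All 7 genes were described in every comparison, and the 3 genes most correlated with each over the group means were named. The 7 genes and all gene lists were chosen with earlier results of these data known. Alternatives were another pseudocount, other filters, quantile normalization, median ratio scaling, no variance trend, subsets by sex and strain, a fit of all 48 mice and leaving out mice. Positions are from GENCODE M21 and promoter windows from RefSeq (GRCm38.p6).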

Additional observations from a re-analysis of the deposited data

Results flagged for a closer look

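A total of 3 genes had a hyperoxia response that differed between the strains in the saline mice (limma, C3H minus C57B). The log2 difference was -1.00 for Angpt2 (adjusted p = 0.000864), -1.19 for Pgf (adjusted p = 0.00412) and 0.80 for Nrp1 (adjusted p = 0.00992). In the ATG mice Angpt2 and Pgf passed as well, and Nrp1 had 0.43 (adjusted p = 0.148).

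The ATG difference of Angptl4 in hyperoxia also differed between the strains, by 1.09 (adjusted p = 0.0330), in a test chosen after its values were seen.

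A single sample stood far from its set. Angpt1 was 30.2 FPKM in mouse 2, a C3H male given saline in room air, where the other 5 C3H lungs of that condition had 21.6 to 23.0 FPKM. Of the 56 sets of 6 mice examined this was the 1 past the limit of Dixon's test, and chance alone passes about 1 in 20.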

How the results depend on the processing

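For 36 gene and comparison pairs, drawn from 11 comparisons, 1217 values were recomputed. The pairs were those with an unadjusted limma p under 0.05 in the reported fit, plus a few named ones. The counts therefore do not describe all values of the 7 genes. In 828 of the recomputed values 1 mouse was left out. Of all 1217 values, 1131 kept their direction and their side of the threshold, 65 no longer passed it, 13 newly passed it, and 8 changed sign. All 7 genes passed for hyperoxia with each mouse left out in turn, after saline (7 to 7) and after ATG (7 to 7). In C3H fitted alone 4 passed after saline, and the share of all genes that passed in that fit is not given here.

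The ATG call of Angptl4 in hyperoxia was the least stable: the count of genes passed went from 1 to 0 with a pseudocount of 0.1, with FPKM of at least 0.1 as filter, with no filter, under quantile normalization and median ratio scaling, without the variance trend, and in males, females or C57B alone, and it ran from 0 to 2 with 1 mouse left out. In C57B alone Angptl4 had -0.16 in hyperoxia (adjusted p = 0.602) and -0.01 in room air. Its strain difference in the hyperoxia response was 0.37 in the ATG mice and ran from -0.17 to 0.08 with 1 mouse left out. The strain difference in the ATG response went from 1 gene to 0 with no filter and with all 48 mice, and ran from 0 to 1 with 1 mouse left out.

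At baseline, the strain comparison went from 2 genes to 1 with all 48 mice and without mice 1 and 3, and ran from 1 to 2 with 1 mouse left out. The sex comparison went from 0 to 1 with all 48 mice and ran from 0 to 2 with 1 mouse left out. The sex difference in the hyperoxia response ran from 0 to 1, and the strain difference from 3 to 4. The cause of these changes was not tested.

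Scaling moved the balance over all genes. Genes higher and lower numbered 1422 and 458 for strain by hyperoxia, 862 and 893 after quantile normalization, and 917 and 1084 after median ratio scaling. For ATG in hyperoxia these were 617 and 251, 350 and 418, and 262 and 369. For ATG by hyperoxia they were 265 and 205, 182 and 342, and 178 and 363. For strain at baseline they were 609 and 1223, 974 and 930, and 933 and 998. For sex at baseline they were 37 and 67, 53 and 43, and 50 and 40. No paired analysis was possible because every mouse has its own number. FPKM give no counting error, so low genes such as Pgf in room air are limited by an unknown depth.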
